A study of Mus musculus with 12 samples.

Results

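The 8 genes described here serve antigen presentation by MHC class II in the mouse: Cd74, H2-Aa, H2-Ab1, H2-Eb1, H2-DMa, H2-DMb1, Ciita and Cd86. They were taken by symbol from the 52459 genes of the count tables, and each of them was present in every table. The libraries came from male mice of 4 months of age of a line in which Tpp1, the gene of the lysosomal protease tripeptidyl peptidase 1, was disrupted by gene targeting. Homozygous Tpp1-/- mice (T) and wild-type siblings (N), bred from heterozygous parents, were compared in the cerebellum (Cb) and in the forebrain/midbrain (F/M), with 3 libraries in each of the 4 groups, F/M-N, F/M-T, Cb-N and Cb-T. The deficiency is present in every cell of the T mice, and the tissue was used whole, without sorting of cells. In such bulk RNA, a change in the number of cells of a type and a change in the RNA per cell cannot be told apart.

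Class II molecules are pairs of an alpha and a beta chain that carry peptides from endosomes to the cell surface, where CD4 T cells read them. In the endoplasmic reticulum the pair is held by the invariant chain (Cd74), which blocks the peptide groove, and in the endosome the last fragment of the invariant chain is exchanged for a peptide with the help of the H2-DM dimer. Transcription of these genes depends on Ciita, a coactivator that binds no DNA itself and is recruited by RFX, CREB and NF-Y at the X and Y boxes of the promoters, while Cd86 gives the T cell the second signal through CD28. In the brain, class II is best known from macrophages and dendritic cells at the borders and from activated microglia.

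Of the 8 genes, 5 lie in the MHC of chromosome 17, within 197.1 kb of GRCm38: H2-DMa (chr17:34119541-34139101, plus strand), H2-DMb1 (chr17:34153072-34160230, plus strand), H2-Ab1 (chr17:34257689-34269419, plus strand), H2-Aa (chr17:34282744-34287823, minus strand) and H2-Eb1 (chr17:34305867-34316674, plus strand). Ciita (chr16:10480059-10528418, plus strand) and Cd86 (chr16:36603869-36666081, minus strand) are on chromosome 16, and Cd74 lies on another chromosome. Promoter windows of 300 bases from RefSeq (GRCm38.p6), from 250 bases before to 50 bases after a transcription start, were at hand for 4 of the 8 genes. They are shown because Ciita is recruited at X and Y boxes of class II promoters, and not every window held a match to both. The letters searched on both strands were ATTGG for the core of the Y box and, for the core of the X box, AG, any 2 bases, AC, any 2 bases and ATG, and matches are in capitals. The windows are those of H2-Eb1 (chr17:34305617-34305916, plus strand), H2-DMb1 (chr17:34152941-34153240, plus strand), H2-Aa (chr17:34287774-34288073, minus strand) and the upstream one of the 2 windows of H2-DMa (chr17:34122582-34122881, plus strand).
H2-Eb1: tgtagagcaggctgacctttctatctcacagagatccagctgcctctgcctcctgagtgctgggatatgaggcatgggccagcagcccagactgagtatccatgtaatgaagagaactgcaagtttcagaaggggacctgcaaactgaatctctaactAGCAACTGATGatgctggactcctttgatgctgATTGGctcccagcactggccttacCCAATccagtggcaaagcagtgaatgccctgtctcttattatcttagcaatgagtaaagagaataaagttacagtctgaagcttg
H2-DMb1: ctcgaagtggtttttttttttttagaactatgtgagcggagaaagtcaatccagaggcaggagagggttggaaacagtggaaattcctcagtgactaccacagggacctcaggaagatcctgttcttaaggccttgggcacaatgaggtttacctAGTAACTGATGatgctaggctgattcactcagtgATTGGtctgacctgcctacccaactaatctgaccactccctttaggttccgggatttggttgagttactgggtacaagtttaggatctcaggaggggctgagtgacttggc
H2-Aa: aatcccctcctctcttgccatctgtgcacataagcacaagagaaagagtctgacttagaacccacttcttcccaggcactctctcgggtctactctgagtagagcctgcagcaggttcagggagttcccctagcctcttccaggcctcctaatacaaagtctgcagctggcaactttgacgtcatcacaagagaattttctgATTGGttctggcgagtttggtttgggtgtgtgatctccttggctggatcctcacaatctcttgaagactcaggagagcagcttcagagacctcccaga
H2-DMa: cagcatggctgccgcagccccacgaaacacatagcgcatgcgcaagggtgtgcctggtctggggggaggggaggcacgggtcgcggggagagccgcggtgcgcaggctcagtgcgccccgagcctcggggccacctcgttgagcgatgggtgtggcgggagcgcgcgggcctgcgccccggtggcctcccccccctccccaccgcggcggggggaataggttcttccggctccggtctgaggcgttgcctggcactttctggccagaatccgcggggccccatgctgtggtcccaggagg

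The promoters of H2-Eb1 and H2-DMb1 both held an X core followed by a Y core. Counted from the start, with -1 as the base before it, the X core of H2-Eb1 began at -92 and the Y core at -59, with 22 bases between them, and a further Y core on the other strand began at -35. In H2-DMb1 the X core began at -95 and the Y core at -61, with 23 bases between them. H2-Aa held a Y core at -48 and no match to the letters of the X core. The upstream H2-DMa window held neither core, had a GC content of 73.0% and contained 29 CpG, and the other H2-DMa window (chr17:34125268-34125567) held a Y core at -198 from its own start. Among 32851 RefSeq windows of this length, 37.4% held a Y core, 3.09% held an X core and 1.42% held both. A match is a description of the letters only.

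Total counts per library were 21428379 to 24458189, and 3 counts, taken as the smallest detectable level, were 0.121 to 0.139 CPM (counts scaled to the TMM-normalized library size), which covers counting error only. Levels are given as CPM over all 12 libraries. Changes are log2 fold changes with standard error (SE) from edgeR's quasi-likelihood test within an area, adjusted over all genes tested, and a gene was called at FDR below 0.1 with a fold change of at least 1.5. Per the study's methods, both areas were taken from 3 mice of each genotype, and the labels do not say which libraries share a mouse. Tpp1 was 87.8 to 94.3 CPM in the N libraries and 21.8 to 23.9 CPM in the T libraries of F/M, and 112 to 114 CPM against 28.0 to 31.1 CPM in those of Cb, in keeping with the genotype labels. Genes of cerebellar granule cells summed to 4650 to 4710 CPM in the controls and 4050 to 4150 CPM in the T libraries of Cb, and to 88.7 to 98.4 CPM in the F/M libraries. None of the 6 was called in Cb at the fold-change limit, by edgeR, DESeq2 or limma-voom, but 4 had an unadjusted p under 0.05, among them Zic1 (log2 fold change -0.50, adjusted p = 1.5e-22), Gabra6 (-0.39) and Neurod1 (-0.29). Hox genes of paralog groups 2 to 6, which are expressed in hindbrain and spinal cord and not in cerebellum, summed to 0.325 to 0.551 CPM in the Cb-N libraries and to 13.7 to 14.6 CPM in the Cb-T libraries, with at most 0.0847 CPM in any F/M library. The 3 Cb-T libraries thus stood apart together in the Hox and granule cell genes, and the part of these differences in the results for Cb below was not tested.

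In Tpp1-deficient Cb, 7 of the 8 genes rose, by 1.54-fold (H2-DMb1) to 3.66-fold (Cd86), and the change of Ciita, the other one, was positive too. Of all 16382 genes tested in Cb, 8.54% were called higher and 2.66% lower. The 3 T libraries lay above the 3 N libraries for the same 7 genes, which held for 27.7% of all genes tested. In Tpp1-deficient F/M, Cd74, H2-Aa, H2-Eb1 and Cd86 rose, 4 of the 7 genes tested, where 2.63% of 16665 genes were called higher and 0.858% lower, and the changes of the other 3 were positive. Here the T libraries lay above the N libraries for 6 of the 7 genes, against 13.3% of all genes tested. Ciita was too low in F/M to be tested. The median log2 fold change was 0.69 over the 8 genes in Cb and 0.63 over the 7 genes in F/M, beside 0.0119 and 0.00775 over all genes tested. The 8 genes together summed to 14.3 to 15.4 CPM in the Cb-N libraries and 25.6 to 27.3 CPM in the Cb-T libraries, and in F/M to 20.8 to 25.9 CPM in the N libraries and 33.7 to 37.6 CPM in the T libraries.

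**Figure D1:**
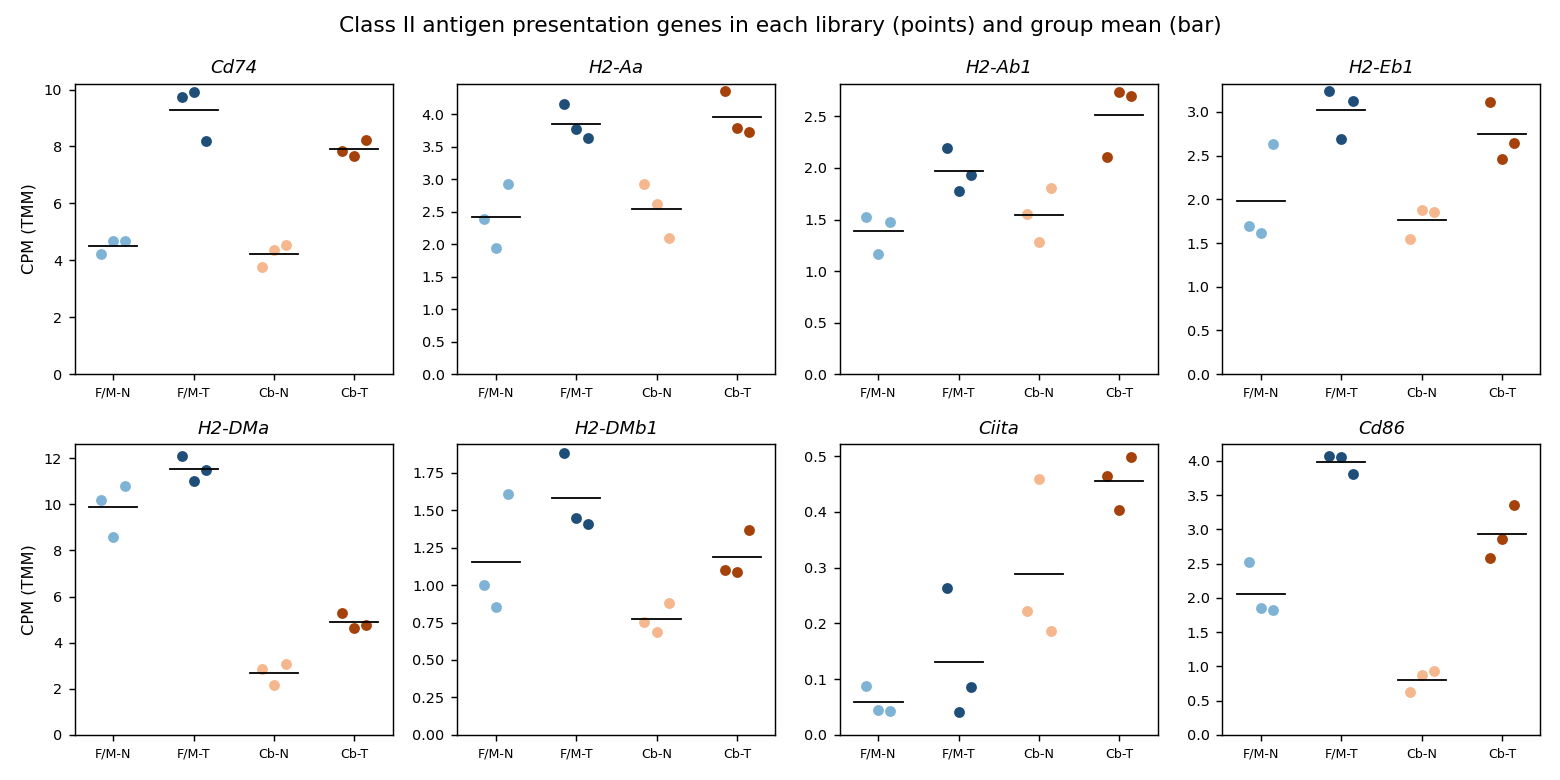
Level of each of the 8 genes in CPM (vertical axis, from 0, one scale per gene) in the 3 libraries (points) and their mean (bar) of the 4 groups. The T libraries sit above the N libraries in both areas for Cd74, H2-Aa, H2-Ab1, H2-Eb1, H2-DMa and Cd86, in Cb but not in F/M for H2-DMb1, and in neither area for Ciita.

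Cd74 encodes the invariant chain and, per kb of annotated exons, was the most abundant of the 8 genes in Cb and in F/M-T, with 2.52 ± 0.242 CPM per kb (SD, n = 3) in Cb-N. In F/M-N its 2.69 ± 0.158 CPM per kb stood beside 2.86 ± 0.330 CPM per kb of H2-DMa, and the ranges of these genes overlapped. Its levels were 3.77, 4.36 and 4.55 CPM in the Cb-N libraries and 7.85, 7.66 and 8.21 CPM in the Cb-T libraries. In F/M they were 4.21, 4.68 and 4.66 CPM in the N libraries and 9.72, 9.90 and 8.18 CPM in the T libraries. The N libraries of both areas thus covered one range, and all T libraries lay well above it. Cd74 rose by a log2 fold change of 0.92 (SE 0.11, adjusted p = 2.8e-09) in Cb and of 1.07 (SE 0.11, adjusted p = 4.6e-07) in F/M in edgeR's test. It was called in every alternative fit and with every library left out in turn.

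The peptide-binding chains were 1.44-fold to 1.64-fold higher in T than in N. H2-Aa, the alpha chain of I-A, was 2.93, 2.62 and 2.09 CPM in the Cb-N libraries and 4.35, 3.79 and 3.73 CPM in the Cb-T libraries. In F/M it was 2.39, 1.94 and 2.92 CPM in the N libraries and 4.16, 3.77 and 3.64 CPM in the T libraries. The groups did not overlap in either area, and H2-Aa rose by 0.64 (SE 0.15) in Cb and by 0.70 (SE 0.16) in F/M on the log2 scale, with adjusted p of 0.00043 and 0.0033 in edgeR's test. H2-Ab1, the beta chain that pairs with it, was 1.55, 1.28 and 1.81 CPM in the Cb-N libraries and 2.11, 2.74 and 2.70 CPM in the Cb-T libraries. Its F/M levels were 1.52, 1.17 and 1.48 CPM in the N libraries and 2.19, 1.78 and 1.93 CPM in the T libraries. Again the T libraries lay above the N libraries in both areas, and H2-Ab1 rose in Cb (log2 fold change 0.71, SE 0.19, adjusted p = 0.0019). In F/M its log2 fold change of 0.53 (SE 0.20, adjusted p = 0.066 in edgeR's test) was a 1.44-fold difference, under the limit on the fold change. H2-Eb1, the beta chain of I-E, was 1.55, 1.88 and 1.86 CPM in the Cb-N libraries and 3.12, 2.46 and 2.65 CPM in the Cb-T libraries. In F/M it was 1.69, 1.62 and 2.63 CPM in the N libraries and 3.24, 2.69 and 3.13 CPM in the T libraries. The third N library of F/M lay close to the lowest T library, without overlap, and H2-Eb1 rose by 0.65 (SE 0.18) in Cb and 0.63 (SE 0.19) in F/M, with adjusted p of 0.0024 and 0.021 in edgeR's test.

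The calls for these chains lie close to the fold-change limit. Without Cb-N replicate 1 the log2 fold change of H2-Eb1 in Cb was 0.56, and without Cb-T replicate 1 it was 0.55. For H2-Aa in Cb it was 0.51 without Cb-N replicate 3 and 0.57 without Cb-T replicate 1. In F/M, H2-Aa came to 0.57 and H2-Eb1 to 0.51 without F/M-N replicate 2, which left 2 of the 7 genes called, Cd74 and Cd86. H2-Eb1 in F/M also came to 0.53 without F/M-N replicate 1 and 0.58 without F/M-T replicate 1. H2-Ab1 in F/M passed the limits without F/M-N replicate 1 (0.59) or without F/M-T replicate 2 (0.60). In each of these fits the T libraries remained higher on average. F/M-T replicate 1 was the highest of its group for 7 of the 8 genes.

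**Figure D2:**
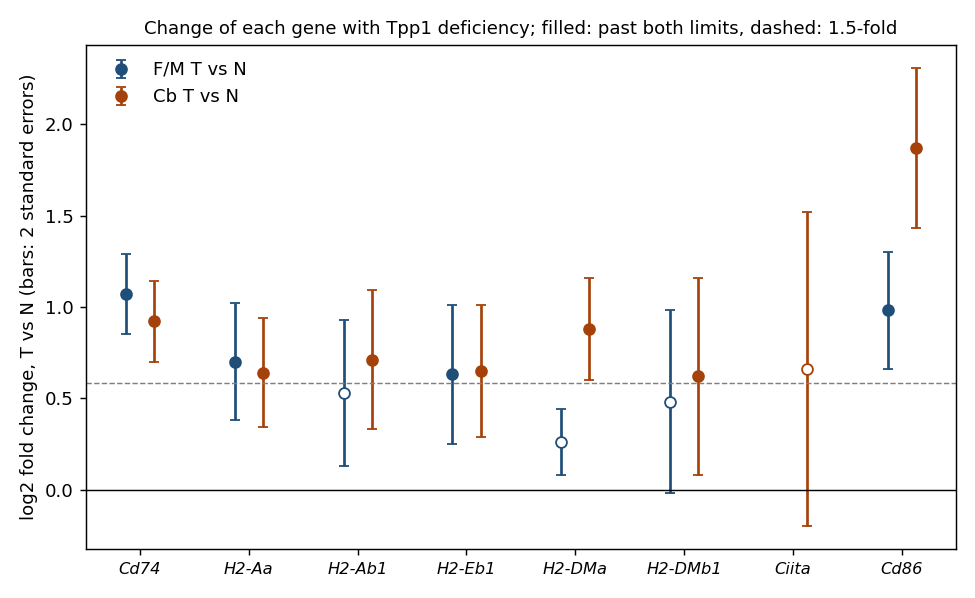
Log2 fold change of T against N (vertical axis) of each gene in F/M (blue) and Cb (brown), with bars of 2 standard errors. Filled points passed both limits, open points did not, and the dashed line is the 1.5-fold limit. Cd86 in Cb stands highest at 1.87, and H2-DMa is the gene with a call in Cb (0.88) and the smallest change in F/M (0.26).

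The 2 subunits of the peptide exchange factor H2-DM had different distributions between the areas. H2-DMa was 2.84, 2.16 and 3.06 CPM in the Cb-N libraries and 5.28, 4.63 and 4.77 CPM in the Cb-T libraries. In F/M it was already 10.2, 8.60 and 10.8 CPM in the N libraries and reached 12.1, 11 and 11.5 CPM in the T libraries. The T libraries lay above the N libraries in both areas, but in F/M by little, and every F/M library was above every Cb library. H2-DMa rose by 0.88 (SE 0.14, adjusted p = 1.6e-06) in Cb, and its log2 fold change of 0.26 (SE 0.09, adjusted p = 0.048) in F/M was under the fold-change limit. Exons of H2-DMa share 360 bases with Brd2, an abundant gene on the opposite strand, and the strand setting of the counting is not given in the sources used here. The mean level of Brd2 was 256 CPM in the Cb-N libraries and 261 CPM in the Cb-T libraries, and in F/M 221 CPM with N and 227 CPM with T. The part of Brd2 reads in the H2-DMa counts was not tested.

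H2-DMb1, the beta chain of H2-DM, was 0.755, 0.688 and 0.882 CPM in the Cb-N libraries and 1.10, 1.09 and 1.37 CPM in the Cb-T libraries. In F/M it was 0.998, 0.855 and 1.61 CPM in the N libraries and 1.88, 1.45 and 1.41 CPM in the T libraries. The groups were apart in Cb and overlapped in F/M through the third N library. H2-DMb1 rose in Cb by 0.62 (SE 0.27, adjusted p = 0.048), and in F/M its log2 fold change was 0.48 (SE 0.25, adjusted p = 0.19 in edgeR's test). The Cb call was lost in DESeq2 (adjusted p = 0.16) and without Cb-N replicate 1 (adjusted p = 0.11), Cb-N replicate 2 (0.15) or Cb-T replicate 3 (0.18). Without F/M-N replicate 3 the F/M log2 fold change was 0.80 (adjusted p = 0.034), past both limits. Of the 1629 stretches of 50 bases in H2-DMb1 transcripts, 22.7% also occur in the neighbouring H2-DMb2, so reads could have been divided between these copies. H2-DMb2 itself had 0 to 13 reads per library.

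Ciita, the coactivator on which the other class II genes depend, was detected by a handful of reads. The Cb-N libraries held 5, 10 and 4 reads (0.222, 0.459 and 0.186 CPM) and the Cb-T libraries 11, 10 and 12 reads (0.464, 0.403 and 0.498 CPM). The F/M-N libraries held 2, 1 and 1 reads and the F/M-T libraries 6, 1 and 2 reads, of which all but one of the 6 libraries lay under the smallest detectable level. The Cb libraries were mostly the higher ones, although F/M-T replicate 1 (0.263 CPM) lay above 2 of the Cb-N libraries, and N and T overlapped in both areas. In Cb the ratio of T to N was 1.58 from 33 against 19 reads, with an exact 95% interval of 0.87 to 2.93 for counting error, and edgeR's test gave a log2 fold change of 0.66 (SE 0.43, adjusted p = 0.21). Without Cb-N replicate 2, the control library with the most Ciita reads, the log2 fold change was 1.14 (adjusted p = 0.082), past both limits. In F/M, 9 against 4 reads gave a ratio of 2.20 with an interval of 0.615 to 9.79. A change of Ciita with genotype was not detectable at this depth. Exons of Ciita share 329 bases with Dexi on the opposite strand, which had a mean of 36.3 CPM in Cb-N, and of 34.2 CPM in the control F/M.

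Cd86, the ligand of CD28 and CTLA4, had the largest fold change of the 8 genes in Cb. It was 0.622, 0.872 and 0.929 CPM in the Cb-N libraries and 2.58, 2.86 and 3.36 CPM in the Cb-T libraries. In F/M it was 2.52, 1.85 and 1.82 CPM in the N libraries and 4.07, 4.06 and 3.81 CPM in the T libraries. The groups were far apart in both areas, and every Cb-T library lay above the F/M-N libraries. Cd86 rose by 1.87 (SE 0.22, adjusted p = 8.7e-10) in Cb and by 0.98 (SE 0.16, adjusted p = 0.00014) in F/M on the log2 scale in edgeR's test. Like Cd74, it remained called with each library left out in turn.

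In the control mice, the question was whether the 2 areas start from the same level. Cb-N and F/M-N differed for H2-DMa and Cd86, and for Ciita as far as its few reads tell, where 42.4% of all 17482 genes tested in the fit of 12 libraries were called in either direction. H2-DMa (log2 difference of Cb-N from F/M-N -1.87, SE 0.12, adjusted p = 1.7e-14) and Cd86 (-1.35, SE 0.23, adjusted p = 3.9e-06) were lower in Cb-N in edgeR's test. Ciita, with 19 reads in Cb-N and 4 in F/M-N, entered this fit through the Cb libraries, where it is higher, and each F/M-N library was under the smallest detectable level. Its call (2.21, SE 0.71, adjusted p = 0.0063 in edgeR's test) is therefore no more than a description of these reads, whose ratio was 4.97 with an exact 95% interval of 1.65 to 20.1 for counting error. The libraries of Cb-N and F/M-N did not overlap for these 3 genes, against 38.4% of all genes with Cb-N below and 38.5% with Cb-N above. For Cd74 the difference was -0.10 (2 standard errors to either side, -0.35 to 0.15), for H2-Aa 0.07 (-0.27 to 0.42), for H2-Ab1 0.15 (-0.27 to 0.58) and for H2-Eb1 -0.17 (-0.58 to 0.23). H2-DMb1, at -0.58 (adjusted p = 0.059), just missed the fold-change limit and passed it without F/M-N replicate 1 (-0.68), F/M-N replicate 2 (-0.75) or Cb-N replicate 3 (-0.68), with RLE size factors (-0.59), with no filter on low counts (-0.59) and with no fold-change limit. Over all fits with a library left out its difference ranged from -0.75 to -0.26. Per kb of annotated exons, the order in Cb-N was Cd74 (2.52 CPM per kb), H2-Eb1 (0.907), H2-DMa (0.779), H2-Aa (0.671), H2-Ab1 (0.602), H2-DMb1 (0.461), Cd86 (0.221) and Ciita (0.0303). The ranges of neighbours in this order overlapped from H2-Eb1 to H2-DMb1, and Cd74, Cd86 and Ciita were each apart from the rest. In F/M-N, H2-DMa (2.86 CPM per kb) stood beside Cd74 (2.69), with H2-Eb1 (1.02), H2-DMb1 (0.687), H2-Aa (0.636), Cd86 (0.564) and H2-Ab1 (0.541) in overlapping ranges and Ciita (0.00609) at the end.

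The difference between the changes of the 2 areas was tested as the interaction of area and genotype. It was called for H2-DMa (change in Cb minus change in F/M 0.64, SE 0.17, adjusted p = 0.0059) and Cd86 (0.91, SE 0.27, adjusted p = 0.015), 2 of the 8 genes, both larger in Cb. Among all genes tested, 7.61% were called in either direction and 6.41% with the larger change in Cb. For H2-DMa the difference fell under the 1.5-fold limit without F/M-N replicate 3 (0.57), Cb-N replicate 2 (0.50) or Cb-T replicate 1 (0.53). For the other genes the differences with 2 standard errors to either side were -0.13 (-0.44 to 0.18) for Cd74, -0.04 (-0.48 to 0.41) for H2-Aa, 0.21 (-0.35 to 0.76) for H2-Ab1, 0.04 (-0.48 to 0.55) for H2-Eb1 and 0.17 (-0.56 to 0.89) for H2-DMb1. For Ciita the interval, -2.22 to 1.37, left the sign undetermined. The interaction uses the same control libraries as the comparison of Cb-N with F/M-N.

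Microglia are the most numerous cells of the brain that can carry class II, and a list of 16 microglial genes was set beside the 8 genes. It summed to 196 to 208 CPM in Cb-N, 680 to 689 CPM in Cb-T, and in F/M to 571 to 589 CPM with N and 848 to 857 CPM with T, ratios of T to N of 3.41 in Cb and 1.47 in F/M. In Cb, 13 of the 16 genes rose and in F/M 8 of 16, with median log2 fold changes of 1.69 and 0.58, and all 16 were lower in Cb-N than in F/M-N (median -1.65). P2ry12 and Tmem119, which mark resting microglia, changed less than the limit in Cb (log2 fold changes 0.50 and 0.31) and in F/M (-0.01 and -0.06), while Fcrls (3.27), Tyrobp (2.93), C1qa (2.68) and C1qb (2.52) changed most in Cb. The part of this difference in the class II results was not tested.

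Relative to the microglial sum, the 8 genes showed different patterns. The share of Cd86 was 0.401 ± 0.0721% of it in Cb-N, 0.427 ± 0.0553% in Cb-T, 0.356 ± 0.0701% in F/M-N and 0.468 ± 0.0164% in F/M-T (SD, n = 3). Cd74 was 2.10 ± 0.150% in Cb-N and 1.15 ± 0.0404% in Cb-T, and in F/M 0.780 ± 0.0454% and 1.09 ± 0.110%. The Cb-N libraries thus had the highest share of Cd74 relative to this sum, and the libraries of the 2 T groups overlapped. H2-Aa (1.27 ± 0.249% in Cb-N, 0.577 ± 0.0545% in Cb-T), H2-Ab1 (0.770 ± 0.114% and 0.366 ± 0.0485%) and H2-Eb1 (0.877 ± 0.0767% and 0.401 ± 0.0532%) had lower shares in Cb-T than in Cb-N, without overlap of libraries. In F/M the shares of T and N overlapped for H2-Aa, H2-Ab1, H2-Eb1 and H2-DMb1, while those of Cd74 and Cd86 were higher in T without overlap. The share of H2-DMa was lower in T without overlap in both areas, at 1.29 to 1.41% against 1.51 to 1.82% in F/M and 0.672 to 0.777% against 1.08 to 1.47% in Cb. H2-DMa alone of the classical and H2-DM genes had a lower share in Cb-N (1.34 ± 0.219%) than in F/M-N (1.70 ± 0.169%). These shares depend on which genes make up the sum, and no test was applied to them. P2ry12 (1.42-fold) and Tmem119 (1.24-fold) rose less in Cb than Cd74 (1.89-fold), H2-Aa (1.56-fold), H2-Ab1 (1.64-fold) and H2-Eb1 (1.57-fold). Other genes of the sum, such as Fcrls (9.61-fold) and Tyrobp (7.64-fold), rose more. The lower shares in Cb-T therefore hold for the sum and not for each gene in it.

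**Figure D3:**
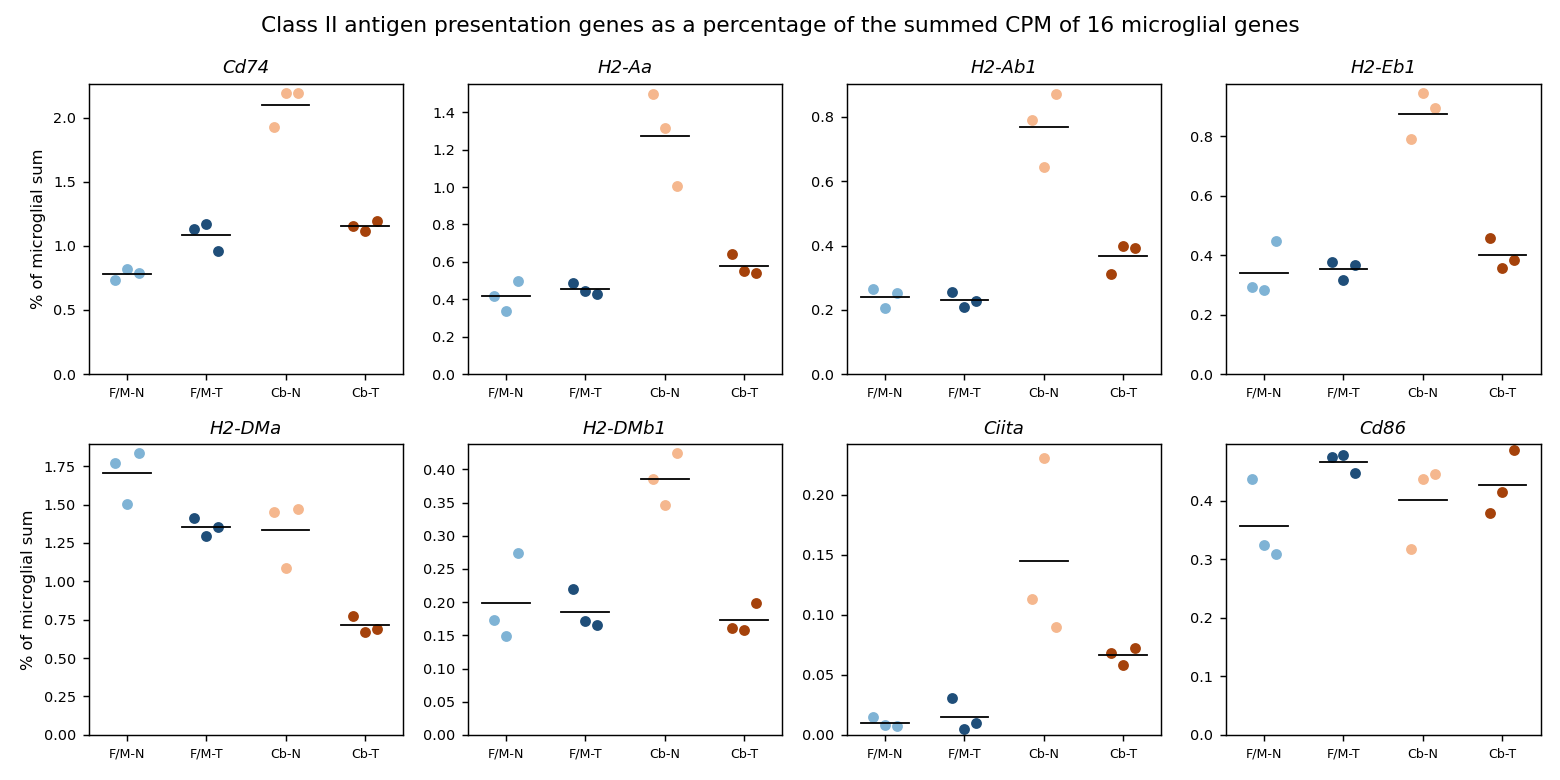
Each gene's CPM as a percentage of the summed CPM of 16 microglial genes in the same library (vertical axis, from 0), with 3 libraries (points) and their mean (bar) per group. Cd86 lies between 0.309% and 0.488% in all libraries, while Cd74, H2-Aa, H2-Ab1, H2-Eb1, H2-DMb1 and Ciita have their highest mean in Cb-N.

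Other cell types that carry class II were looked at through their markers. Of 7 genes of macrophages at the borders of the brain, 4 rose in Cb (Ms4a7 1.87, Pf4 0.99, Mrc1 0.69 and F13a1 0.59) and 1 in F/M (Ms4a7 1.14). The other 3 were not called in Cb, with log2 fold changes of -0.37 (Lyve1), -0.16 (Cd163) and 0.23 (Cbr2). DESeq2 called 3 in Cb, without F13a1, and 0 in F/M, where 1 had an unadjusted p under 0.05 in edgeR. Their sum was 9.15 to 10.4 CPM in the Cb-N libraries and 14.2 to 14.8 CPM in the Cb-T libraries, and in F/M 14.0 to 15.9 CPM with N and 16.1 to 17.4 CPM with T. Of 7 B cell genes, 3 were tested in each area, of which Cd22 (3.50), Ighm (1.32) and Pax5 (0.92) rose in Cb and Cd22 (2.74) in F/M. Their sum was 4.97 to 6.06 CPM in Cb-N, 13 to 14.2 CPM in Cb-T, and in F/M 24.9 to 25.6 CPM with N and 28.3 to 30.8 CPM with T. The defining B cell genes Cd79a, Cd79b and Ms4a1 were at 0.508 CPM or less in every library. Of 8 dendritic cell genes, 3 were tested in Cb and 4 in F/M, and none was called by edgeR, DESeq2 or limma-voom, at the fold-change limit. Zbtb46 (-0.19, adjusted p = 3.3e-06) and Flt3 (-0.25, adjusted p = 3.2e-06), the 2 with an unadjusted p under 0.05 in Cb beside 0 in F/M, made up most of the sum. It was 151 to 156 CPM in the controls and 131 to 133 CPM in the T libraries of Cb, and 28.2 to 30.4 CPM and 26.9 to 27.5 CPM in those of F/M. Xcr1 and Clec9a, which define the cross-presenting subset, were at 0.0868 CPM or less. The Cb-N mean was 104 CPM for Zbtb46 and 48.4 CPM for Flt3, beside 0.107 CPM for Batf3. Whether the Zbtb46 and Flt3 reads came from dendritic cells was not tested, so their sum is no measure of these cells. Of the genes of monocytes and neutrophils, 3 were tested in Cb and 2 in F/M, and none was called by these tools or had an unadjusted p under 0.05. Their sum was 2.99 to 3.67 CPM over the Cb libraries and 1.66 to 2.03 CPM over the F/M libraries. Choroid plexus genes summed to 2250 to 2390 CPM in the Cb-N libraries and 2130 to 2270 CPM in the Cb-T libraries, and in F/M to 601 to 640 CPM with N and 824 to 869 CPM with T. Most of this sum was Ttr, whose F/M mean was 555 CPM with N and 774 CPM with T (a log2 fold change of 0.51, under the fold-change limit). In F/M, Folr1 (0.26, without overlap of libraries) and Kcnj13 (0.20, with overlap) were also positive, while Kl (-0.04), Otx2 (0.04) and Clic6 (0.07) were near 0. None of the 6 choroid plexus genes was called by these tools, and an unadjusted p under 0.05 in edgeR was found for 3 in Cb and 2 in F/M. The part of these cells in the class II results was not tested.

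**Figure D4:**
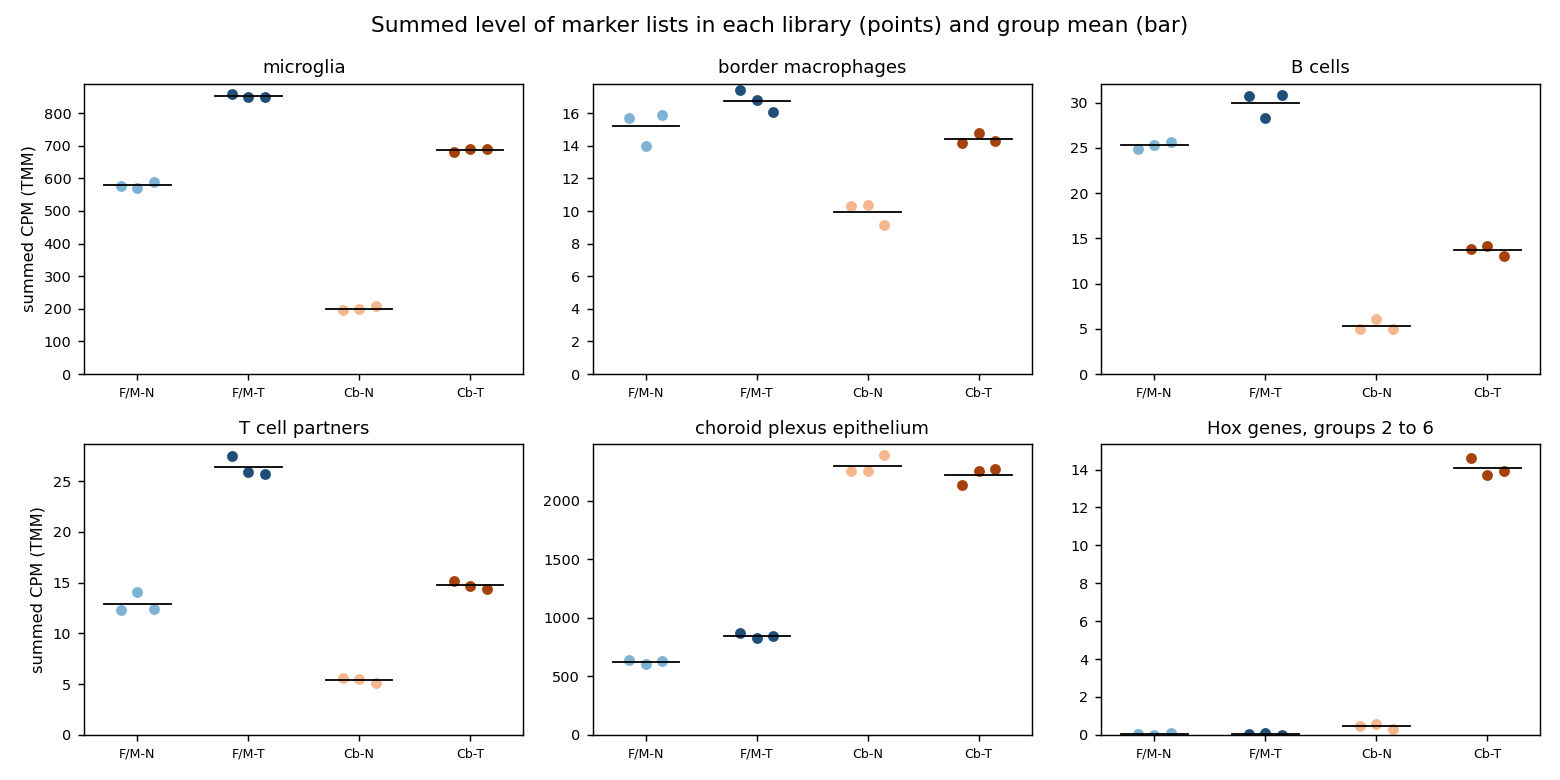
Summed CPM (vertical axis, from 0, one scale per list) of 6 lists of marker genes in the 3 libraries (points) and their mean (bar) per group. The microglial sum is lowest in Cb-N at 196 to 208 CPM, and the Hox genes reach 13.7 CPM or more in Cb-T alone.

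The remaining class II genes were close to the detection level or had no reads. H2-Ea-ps, listed for the alpha chain that pairs with H2-Eb1 in I-E, had 0 reads in every library. Whether an I-E pair was made was not tested. H2-Ob, the beta chain of the H2-DM inhibitor H2-O, had 5, 6 and 5 reads in Cb-N and 17, 26 and 18 reads in Cb-T, and it rose there (log2 fold change 1.78, SE 0.38, adjusted p = 0.00014). In F/M its log2 fold change was 0.51 and was not called. H2-Oa, the alpha chain, rose in F/M (1.22, SE 0.42, adjusted p = 0.042 in edgeR's test) with overlapping libraries. This call was lost in DESeq2, and H2-Oa was too low in Cb to be tested.

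The factors that hold Ciita at the X and Y boxes did not pass the limits in either area. None of the 7 genes Rfx5, Rfxap, Rfxank, Nfya, Nfyb, Nfyc and Creb1 was called by edgeR, DESeq2 or limma-voom, with an unadjusted p under 0.05 for 2 of them in Cb and 1 in F/M, and they had a median log2 fold change of 0.03 in Cb and -0.02 in F/M. Their largest changes were -0.17 (Creb1 in Cb) and -0.21 (Rfxank in F/M). Of the 10 genes upstream of Ciita, 3 of 8 tested rose in Cb and 3 of 9 in F/M. In Cb these were Irf8 (2.04), Spi1 (1.83) and Irf1 (0.70), and in F/M they included Irf8 (0.90) and Spi1 (0.76). Irf8 and Spi1 are transcription factors of myeloid cells, and Irf1 is induced by interferons. Ifng, the interferon that induces Ciita, had 0 reads in all 12 libraries, which allows up to 0.121 to 0.139 CPM per library.

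Among 9 measured genes of invariant chain processing and peptide supply, 4 rose in Cb and 2 in F/M, and none was called lower. Ctss, the cathepsin that trims the invariant chain, rose most, by 2.29 (SE 0.038) in Cb and 1.30 (SE 0.038) in F/M. Ifi30, a lysosomal thiol reductase, rose by 0.61 and 1.05. March1, the ligase that sends class II and Cd86 to degradation, rose in Cb (1.10) and not in F/M (0.04), and Ctsl rose in Cb (0.60). Of the costimulatory genes other than Cd86, 4 of 6 tested rose in Cb (Icam1 1.11, Cd274 0.97, Cd83 0.81 and Cd40 0.78, the last with overlapping libraries and not called in DESeq2). In F/M, 2 of 7 rose, Cd274 (1.14) and Icam1 (0.86).

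On the side of the T cell, 2 of 3 tested genes rose in Cb and 1 of 4 in F/M. Lag3, an inhibitory receptor that binds class II, rose by 2.48 (SE 0.14) in Cb and 2.21 (SE 0.098) in F/M, and Trac by 0.62 in Cb. The defining T cell genes Cd3d, Cd3e, Cd3g and Cd8a were at 0.257 CPM or less in every library. Cd4, the T cell coreceptor for class II, had 3 reads in all in the controls and 28 reads in the T libraries of Cb, too few to be tested there, and 7.37 to 9.24 CPM over the F/M libraries. Its log2 fold change in F/M was 0.16 (adjusted p = 0.28 in edgeR's test).

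MHC class I, which presents peptides of the cytosol to CD8 T cells, was the nearest other gene group. Of 14 genes, 9 rose in Cb (median log2 fold change 0.77) and 10 in F/M (median 1.15), or 9 in F/M by DESeq2, without H2-Q7. The largest changes in Cb were those of H2-Q6 (1.16), Nlrc5 (1.13), B2m (1.09) and Psmb8 (1.07), and in F/M those of H2-Q6 (2.07), Nlrc5 (1.47), H2-Q4 (1.31) and B2m (1.23). Nlrc5 is the class I counterpart of Ciita, and H2-Q genes are near-identical copies between which reads may have been divided. The change differed between the areas for 1 of the 14 genes, H2-D1, which had the smaller one in Cb (-0.80, SE 0.059, adjusted p = 7.4e-12). None was called with a larger change in Cb, by edgeR's test, and class I and class II were not tested against each other.

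**Figure D5:**
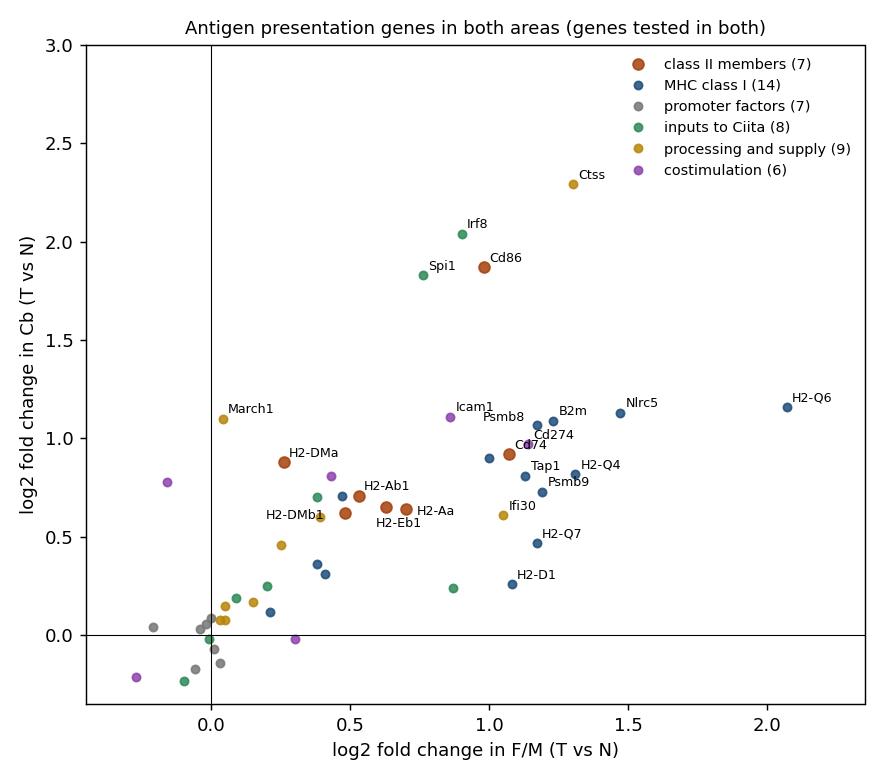
Log2 fold change of T against N in F/M (horizontal axis) and in Cb (vertical axis) of genes tested in both areas, coloured by list, with the number of genes in brackets. The promoter factors lie around 0, the class I genes reach 2.07 in F/M, and Cd86 lies with Irf8, Spi1 and Ctss at the top for Cb.

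Patterns over the 12 libraries were compared for Cd74 and Cd86, as the root mean square difference of log2 CPM centred on each gene's mean, over 14940 genes. These are descriptions, since all libraries and both areas enter them. The genes most like Cd74 were H2-K1 (0.10), Ddx58 (0.12), Trim25 (0.14), Olfml1 (0.15) and B2m (0.16). H2-K1 was 21.5 ± 1.22 CPM in Cb-N, 39.9 ± 1.81 CPM in Cb-T, and in F/M 21.9 ± 1.97 CPM with N and 43.1 ± 0.958 CPM with T (SD, n = 3). As for Cd74, the T libraries were the higher ones in both areas. Those most like Cd86 included Havcr2 (0.19), Pld4 (0.19), Fcgr3 (0.20) and Cd37 (0.21). Havcr2 was 1.10 ± 0.263 CPM in Cb-N, 3.82 ± 0.186 CPM in Cb-T, and in F/M 2.88 ± 0.416 CPM with N and 5.72 ± 0.323 CPM with T. As for Cd86, its lowest level was that of Cb-N and its highest that of F/M-T.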

How the data were processed

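Poly(A)-selected RNA of 12 libraries was sequenced with single-end reads. The authors ran STAR on mm10 (GRCm38) and featureCounts, and the deposited tables, 1 per library, hold raw counts per gene. Strand setting, treatment of multiple alignments and annotation release are not given in the sources used here. Groups were taken from the sample titles. The 8 genes, the marker and pathway lists and the tests were chosen with earlier results of these data known.

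Counts were analysed in R 4.3.3 with edgeR 4.0.16. For each area, the 6 libraries were filtered by filterByExpr (minimum count 10, minimum total 15), normalized by TMM and tested with glmQLFit and glmQLFTest, with Benjamini-Hochberg adjustment over all genes. Every adjusted p is from this test unless another tool is named. The interaction and the comparison of Cb-N with F/M-N came from a fit of all 12 libraries. The 12 replicate pairs differed by more than sampling noise, with a chi-square per degree of freedom between 1.28 and 3.59. CPM per kb used the exonic length in GENCODE M21. Alternatives were DESeq2 1.42.0, limma-voom (limma 3.58.1), RLE size factors, other count filters, a single fit, other limits, the replicate block and leaving out each library. The scripts were tested on simulated counts. Named genes were the 8 genes, Tpp1, up to 4 called genes with the largest change per list and area, and the 5 genes nearest in pattern to Cd74 and Cd86. The levels of P2ry12, Tmem119, Brd2, Dexi, H2-DMb2, H2-Oa, H2-Ea-ps, Ifng, Cd4, granule cell genes, further border macrophage and choroid plexus genes and the defining lymphocyte and dendritic cell genes, the largest changes among the promoter factors and values of a named gene in the other area were added beside them. A few results for genes that this rule names are not reported here.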

Additional observations from a re-analysis of the deposited data

Results flagged for a closer look

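The change with Tpp1 deficiency differed between the areas for 2 of the 8 genes by the interaction test. Among all genes tested, 7.61% were called in either direction and 6.41% with the larger change in Cb. For H2-DMa the change in Cb exceeded that in F/M by 0.64 on the log2 scale, and for Cd86 it exceeded it by 0.91. The H2-DMa difference fell under the limit in 3 of 12 fits with a library left out. Groups of 3 libraries were not screened for outlying samples.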

How the results depend on the processing

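Of the 251 values of single genes under alternatives other than leaving out a library, 243 kept their direction and side of the limits, 5 came to pass them, 1 no longer did and 2 changed sign. The sign changes were in the interaction, for Ciita with limma-voom (0.04) and for H2-Eb1 with a mean count of at least 50 (-0.01). With that filter 4 genes were called in Cb, since only 4 were tested. H2-Ab1 and H2-DMa were called in F/M without a fold-change limit, and the other 3 gains were those of H2-DMb1 between Cb-N and F/M-N. With each library left out in turn, the genes called numbered 5 to 7 in Cb, 2 to 5 in F/M, 1 to 2 in the interaction and 3 to 4, Ciita included, between Cb-N and F/M-N. Interaction values changed sign for H2-Aa (-0.20 to 0.10), H2-Eb1 (-0.22 to 0.16), H2-DMb1 (-0.15 to 0.34) and Ciita (-0.85 to 0.54), and differences of Cb-N from F/M-N for H2-Aa (-0.06 to 0.23) and H2-Eb1 (-0.30 to 0.09), none of them called. The cause was not tested.

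The groups share replicate numbers, but deviations of same-numbered libraries correlated by at most 0.065 and by as little as -0.019, and 2 or 3 of 6 libraries in each pair of groups correlated best with their own number. The numbers were therefore not used to pair libraries, and whether Cb and F/M libraries of one number came from one mouse is not given. With the replicate block, within genotype where both areas were fitted, the genes called stayed at 7 in Cb, 4 in F/M, 2 in the interaction and 3 between Cb-N and F/M-N. Depth limits Ciita, H2-Oa and H2-DMb2, each with 20 reads or fewer per library.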
